A study of Bos taurus with 9 samples.

Results

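The genes described here are 8 immune genes of cattle: the inflammatory cytokines IL1A, IL1B, IL6 and TNF, the chemokine CXCL8, the anti-inflammatory cytokine IL10, and the bacterial sensors TLR2 and TLR4. They were chosen by Ensembl identifier from a list that pairs each identifier with its symbol, and all 8 are among the 21696 genes of the authors' deposited table. The pairing was not checked against an annotation, because the reference table at hand holds all 8 symbols but 0 Ensembl identifiers. The study sequenced RNA of intercaruncular endometrium, the gland-bearing lining between the caruncles of the uterus. It compared cattle with a short uterine tract (Short, 5 samples) with cattle with a normal tract (Normal, 4 samples), and its title links the short tract to infertility. The labels give no breed, age, cycle stage, parity or health record for either group. They also do not say whether each sample is a separate animal, so that every error here measures a spread between libraries that may be technical. The tissue label could not be checked against marker genes, since the table names genes by identifier only.

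Both Toll-like receptors sit at the cell surface and bind microbial products: TLR2 binds bacterial lipoproteins, and TLR4, with its partner MD-2, binds the lipopolysaccharide of Gram-negative bacteria. Both signal through the adaptor MyD88 to NF-κB, which switches on genes of inflammatory cytokines and chemokines. In the bovine uterus this pathway is known from bacterial infection after calving, when endometrial epithelium and stroma as well as immune cells respond to lipopolysaccharide, and CXCL8 draws neutrophils into the tissue. IL10 acts in the opposite sense and restrains cytokine production by macrophages.

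None of the 8 genes was called different between Short and Normal. Of the 5 with an adjusted p-value in the authors' deposited table, 0 were under 0.05 by DESeq2's Wald test, where 3.14% of the 16615 tested genes were. At an unadjusted p-value under 0.05 there was 1, IL6, against 13.2% of tested genes. The other 3, IL1A, IL1B and CXCL8, were listed with no p-value, as were 2.13% of all listed genes. The deposited fold changes were above 0 for IL1A, IL1B, IL6, TNF and CXCL8 and below 0 for IL10, TLR2 and TLR4. Their median was 0.71 on the log2 scale, against 0.04 over tested genes, and their median size regardless of sign was 1.37, against 0.34. The median standard error was 1.19 for the 8 genes and 0.43 over tested genes.

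**Figure D1:**
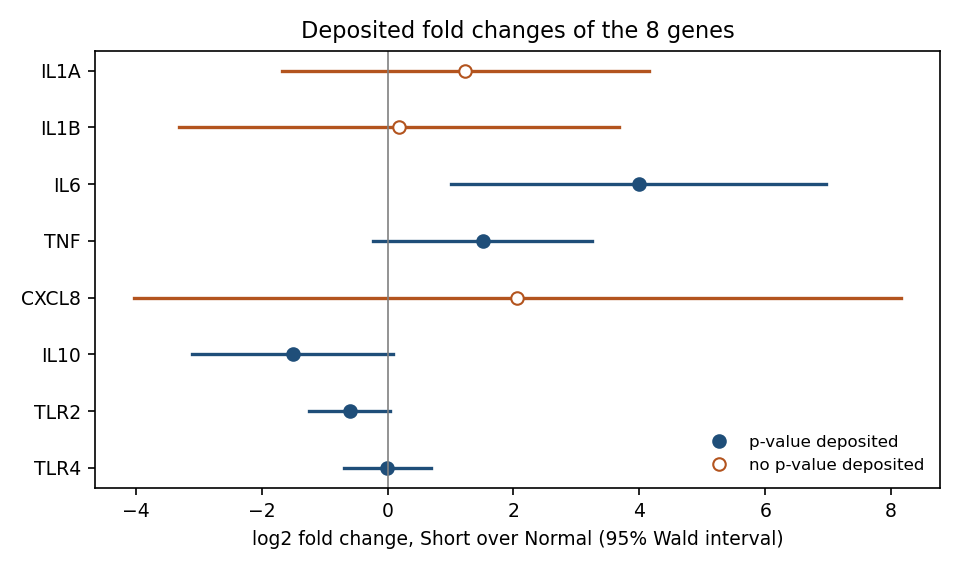
Log2 fold changes of Short over Normal in the authors' deposited table (points) with 95% Wald intervals (lines) for the 8 genes; open points have no deposited p-value. The interval holds 0 for 7 of the 8 genes, the exception being IL6, and it is widest for CXCL8 and narrowest for TLR2.

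The deposited table holds no value per sample. Each deposited mean, however, is an average over 14 libraries of whole reads divided by size factors, written to 15 digits. For genes with few reads it limits how many reads each library can have held. The deposited fold change and standard error narrow this further. The 9 compared libraries are 5 on the Short side and 4 on the Normal side; another 5 belong to the authors' fit but to neither side, and no label describes them. Reads were searched for, and recovered, only in the 3 genes with the lowest mean counts, IL6, TNF and IL10. These means are not corrected for gene length and do not rank the genes by level. Libraries are lettered within their side in order of size factor, from high to low, and could not be tied to named samples. Size factors, which measure relative depth, ran from 0.945 to 1.11 in Short and from 0.928 to 1.1 in Normal. In bulk tissue such as this, fewer cells of a type and less RNA per cell cannot be told apart.

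IL6 (ENSBTAG00000014921), a cytokine that drives the acute-phase response, had the largest deposited fold change of the 8 genes. Its reads were 2, 2, 2, 4 and 14 in Short libraries A to E, against 0, 1, 0 and 0 in Normal libraries A to D. Every Short library held IL6 reads and every one lay above the highest Normal library, but the 5 Short libraries held 24 reads in all and the 4 Normal libraries 1. Divided by size factors, IL6 averaged 4.83 ± 5.65 reads in Short (SD, n = 5) and 0.243 ± 0.486 in Normal (SD, n = 4), a ratio of 19.9. Counting error alone allows a ratio from 2.99 to 753 (exact 95% binomial interval on 24 reads against 1). With 5 libraries against 4 there are 126 arrangements, and the two-sided exact permutation test gave p = 0.0159, the smallest value they allow. That test was added once the data had been seen. How many of all genes separate the groups in this way was not counted. Of the tested genes, 13.2% had an unadjusted DESeq2 p-value under 0.05. As a difference of means of log2(normalised reads + 1), which understates changes of low values, IL6 was 1.90 higher in Short, where the ratio of means is 4.31 on the log2 scale.

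Across all genes that difference did not pass. In the authors' deposited table the mean count of IL6 was 5.23 and its log2 fold change 3.99, with a standard error of 1.52. The unadjusted p-value by DESeq2 was 0.00873 and the adjusted one 0.156. A single library carried 58.3% of the Short reads. Without Short library E the ratio of the means was 9.59. Without Normal library B, the only Normal library with a read, IL6 was at least 4.83-fold higher in Short, taking 3 reads over the remaining Normal libraries as the floor. The libraries outside the comparison held 2, 4, 38, 1 and 3 IL6 reads, so that 65.8% of all 73 reads behind the deposited mean lay outside it, most of them in 1 library.

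TNF (ENSBTAG00000025471), a cytokine released early by activated macrophages, was also read more often in Short libraries, but the groups overlapped. The reads were 11, 9, 3, 5 and 2 in Short libraries A to E, against 4, 2, 0 and 2 in Normal libraries A to D. Short libraries A, B and D lay above every Normal library, while C and E lay within the Normal range. The normalised means were 5.55 ± 3.38 in Short (SD, n = 5) and 1.93 ± 1.49 in Normal (SD, n = 4), a ratio of 2.88, and the exact permutation test (two-sided) gave p = 0.0952. For TNF the authors' deposited table lists 8.89 normalised counts on average, with a log2 fold change of 1.51 and a standard error of 0.89. The DESeq2 p-value of TNF was 0.0884, or 0.489 after adjustment. The 5 libraries outside the comparison held 16, 16, 10, 4 and 35 TNF reads, and each of them lay above the highest Normal library after scaling.

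IL10 (ENSBTAG00000006685), which damps inflammation, was the 1 cytokine of the list with a deposited fold change below 0. Its reads were 9, 5, 3, 6 and 14 in Short libraries A to E, against 20, 11, 25 and 25 in Normal libraries A to D. In Short, 4 of the 5 libraries lay below every Normal library, and the overlap came from Short library E, at 14.8 normalised reads, and Normal library B, at 10.7. The normalised means were 7.20 ± 4.68 in Short (SD, n = 5) and 20.4 ± 7.55 in Normal (SD, n = 4). The Short mean was thus 2.83-fold lower, and counting error alone, on 37 reads against 81, allows 1.92-fold to 4.36-fold lower. The exact permutation test gave p = 0.0317 (two-sided), which was no longer under 0.05 in 7 of the 9 cases in which a library was left out. Leaving out a library cuts the arrangements to 70 or 56, so that p-values come in coarser steps.

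In the fit across all genes, IL10 was not called either. The authors' deposited table puts its log2 fold change at -1.51, for a mean count of 15.1, with a standard error of 0.81. The DESeq2 p-value was 0.0642, or 0.429 after adjustment. The 95% Wald interval of IL10, from -3.10 to 0.09, just holds 0. The 5 libraries outside the comparison held 6, 10, 2, 11 and 50 IL10 reads, the last of them in the library that also held the most TNF reads.

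**Figure D2:**
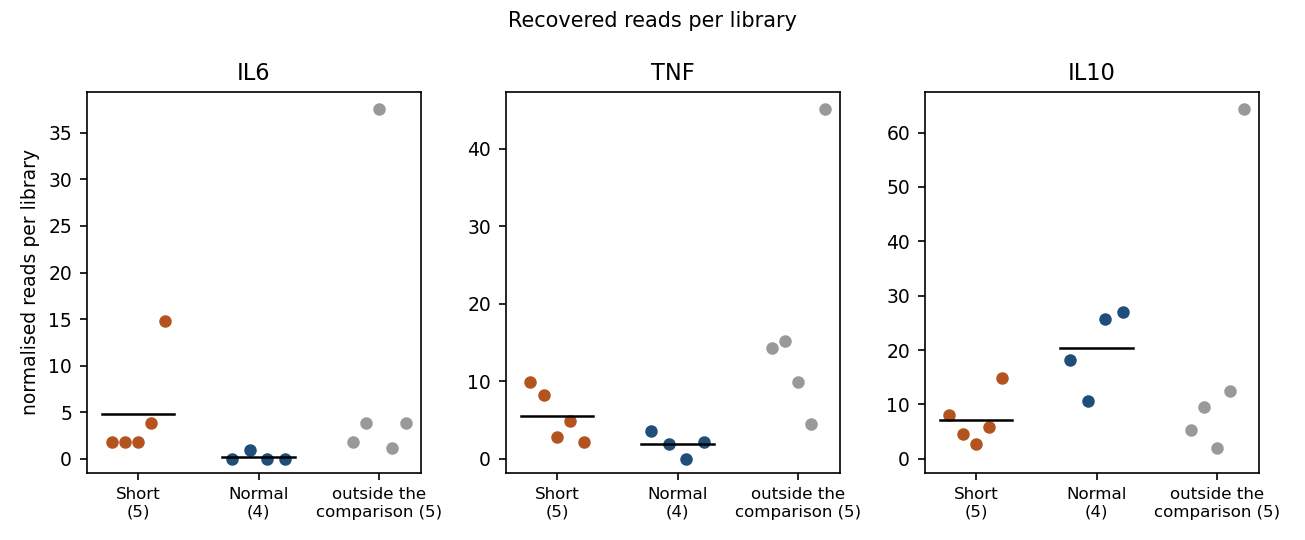
Recovered reads divided by the library's size factor (linear axis, a separate scale for each gene) for IL6, TNF and IL10; each point is 1 library, and black lines are the means of the 5 Short and 4 Normal libraries. Short points lie above all Normal points for IL6, overlap them for TNF and lie below them except for 1 library for IL10, while the highest point of each gene is in a library outside the comparison.

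The same libraries were not high for all 3 genes. Short library E had the most IL6 and IL10 reads of the Short libraries and the fewest TNF reads, and Short libraries A and B had the most TNF reads and 2 IL6 reads each. Outside the comparison, library C held 38 IL6 reads and the fewest IL10 reads, 2. Library E held 50 IL10 and 35 TNF reads but 3 IL6 reads. That library E differed from the other 13 in genes with a mean under 0.7 as well: it detected 92 of the 3060, against 421 to 653, and 31.5% of those it detected held a single read, against 58.4% to 69.7%. It has no label and entered the deposited means and dispersions; its part in the results was not tested.

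IL1A (ENSBTAG00000010349) and IL1B (ENSBTAG00000001321) are the agonist ligands of the interleukin-1 receptor; IL1A acts as an alarm signal of damaged cells, and IL1B is matured by the inflammasome. Their genes lie close together, with 1 gene listed between them in RefSeq's ARS-UCD2.0 annotation. IL1B averaged 1307 normalised counts in the authors' deposited table, where its log2 fold change was 0.18 with a standard error of 1.78 and no p-value. Its 95% Wald interval runs from 9.93-fold lower to 12.7-fold higher in Short, so that the direction is not known. IL1A averaged 32.1 in the authors' deposited table; its log2 fold change was 1.24 with a standard error of 1.49, again with no p-value, and an interval from 3.20-fold lower to 17.8-fold higher.

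CXCL8 (ENSBTAG00000019716), the neutrophil-attracting chemokine, had the widest error of the list. The authors' deposited table lists a mean count of 411, a log2 fold change of 2.06 and a standard error of 3.11 for it, without a p-value. The 95% Wald interval covers 16.4-fold lower to 286-fold higher in Short. Of the 10016 genes with a mean of at least 100 normalised counts, 3 had a larger standard error than CXCL8. Of the 1536 with a mean of at least 1000, 1 had a larger one than IL1B.

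By default the authors' tool, DESeq2, withholds a p-value where Cook's distance marks an extreme count. Whether that was so here, and in which library, was not tested. Recovery of reads was not tried for these 3 genes, since their totals exceed the limit set for the search. An upper limit on the spread between libraries follows from the standard error, if all of it came from variation between libraries and none from counting. As a coefficient of variation it was at most 321% for CXCL8, 184% for IL1B and 154% for IL1A. Among the recovered genes the fitted coefficient of variation, over all 14 libraries, was 113% for IL6, 78.9% for IL10 and 69.5% for TNF.

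The receptors had smaller errors than any of the cytokines. TLR4 (ENSBTAG00000006240) averaged 328 normalised counts in the authors' deposited table, and its log2 fold change was -0.0036 with a standard error of 0.35 and an adjusted DESeq2 p-value of 0.999. Its 95% Wald interval runs from 1.61-fold lower to 1.6-fold higher in Short, so that changes beyond that size lie outside it and smaller ones do not. TLR2 (ENSBTAG00000008008) averaged 71.1 in the authors' deposited table, with a log2 fold change of -0.60 and a standard error of 0.33. Its DESeq2 p-value was 0.0680, or 0.438 after adjustment. That is a level 1.52-fold lower in Short, with an interval from 2.37-fold lower to 1.03-fold higher. The largest coefficient of variation between libraries that these errors allow was 36.2% for TLR4 and 34.0% for TLR2.

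Beside genes of similar mean, the errors of all 6 cytokines were above the middle. Each gene was compared with the 500 listed genes of nearest mean, as a description. None of the 500 neighbours had a larger standard error than IL1B, and none had a larger one than CXCL8. For IL1A there were 10 such neighbours, for IL6 52, for IL10 152 and for TNF 174. For TLR4 there were 214 and for TLR2 374, so that TLR2 was the 1 gene of the 8 with an error below the median of its neighbours, 0.33 against 0.43. Missing p-values were rare in those neighbourhoods too: 2.2% of the neighbours of IL1B and of CXCL8 and 2.8% of those of IL1A had none.

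The fold changes ranked high among genes of similar mean for 5 genes, IL6, CXCL8, TNF, IL1A and IL10. IL6 had 7 neighbours with a larger fold change in either direction and CXCL8 had 8. TNF had 73, and IL1A and IL10 had 74 each. TLR2 had 157, IL1B 312 and TLR4 494 of 500. The median log2 fold change of the neighbours was above 0 at low means, 0.26 around TNF and 0.19 around IL10, and 29 of the 500 neighbours of IL10 had a lower fold change than IL10.

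**Figure D3:**
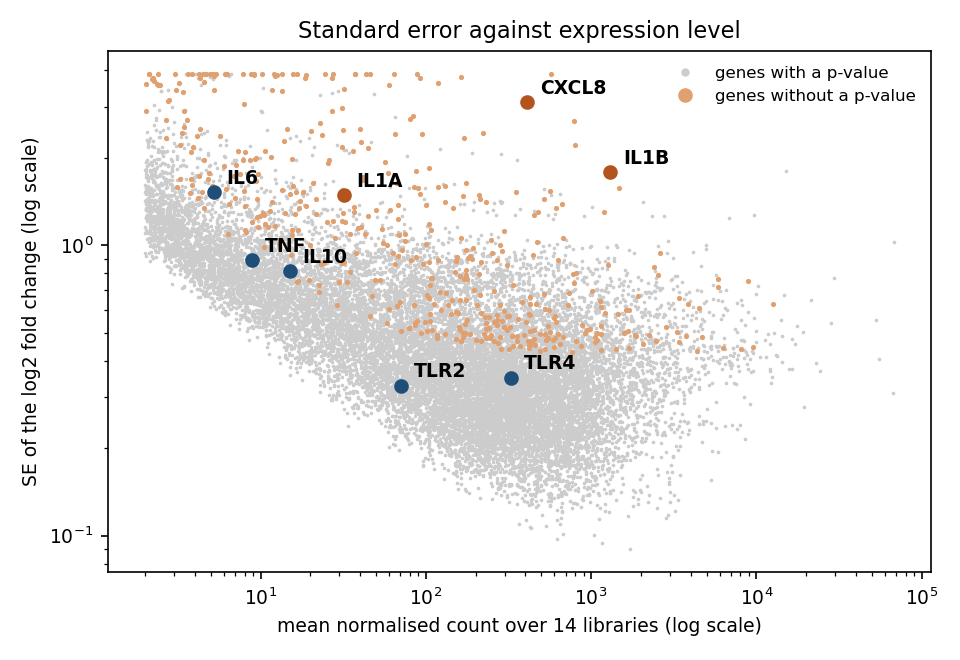
Standard error of the log2 fold change against the mean normalised count over 14 libraries (both axes logarithmic) for listed genes with a mean of at least 2, with the 8 genes named; orange points have no deposited p-value. CXCL8 and IL1B stand above the genes of their mean, and TLR2 and TLR4 lie among them.

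**Figure D4:**
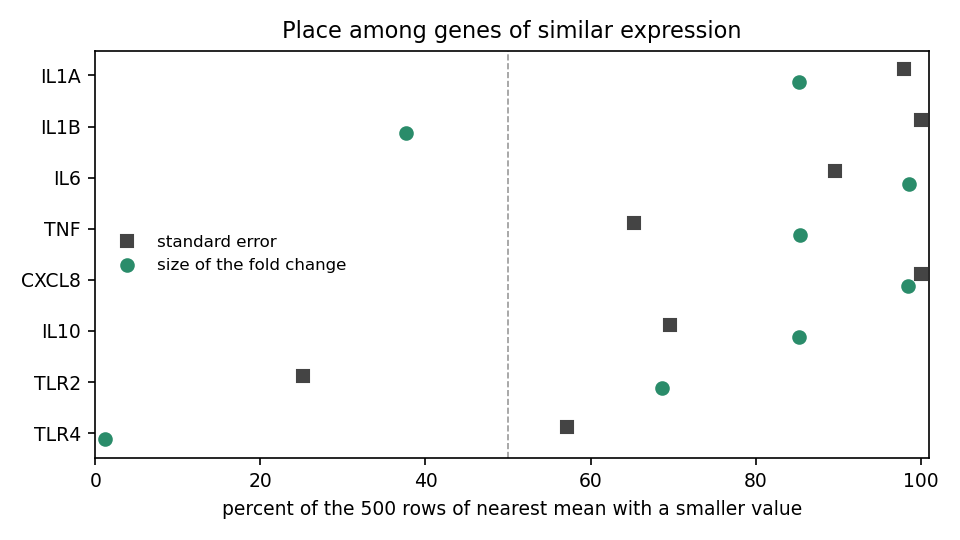
Percent of the 500 genes of nearest mean with a smaller standard error (squares) or a smaller fold change regardless of sign (circles), for each of the 8 genes; the dashed line marks the middle. CXCL8 is at 100 for the error and 98.4 for the fold change, IL1B at 100 and 37.6, and TLR4 at 57.2 and 1.2.

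The size of change that a call would have needed can be worked out if these errors are taken as fixed. The errors depend on the reads observed, so the values below are no limit of the design. The smallest score among called genes was 3.16. At its own standard error TLR2 would have needed a 2.06-fold change, TLR4 2.15-fold, IL10 5.96-fold, TNF 7.0-fold and IL6 28.0-fold. A score that large would have needed 26.1-fold for IL1A, 49.6-fold for IL1B and 916-fold for CXCL8, had these genes been given a p-value. The lack of a call therefore does not show that any of the cytokines was at the same level in Short and Normal. The counts of genes that overlap others could be affected, since no source at hand states the strand setting of the counting. In RefSeq's ARS-UCD2.0 annotation 1 long non-coding RNA gene overlaps each of IL1A, TNF and IL10, and the protein-coding gene RNF175 overlaps TLR2. That annotation is of another build than the one the submitters name.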

How the data were processed

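RNA of intercaruncular endometrium was sequenced from 5 Short and 4 Normal samples. The submitters' processing notes name the build ARS-UCD1.2 and the tools DESeq2, HTSeq, SAMtools and HISAT2, with no version; no annotation release or strand setting is stated. Per the file headers, the authors deposited 1 table with the mean signal (counts divided by size factors), the log2 fold change, its standard error and Wald score, and the p-value and adjusted p-value. All per-gene tests over the 16615 tested genes are the authors' DESeq2 values as deposited; the planned count test needed counts per sample. Library totals were not used here, and size factors give relative depth. The 8 genes, and the way they are compared, were chosen with earlier results of these data known. All 8 are named. Lists of other pathway genes and of cell type markers could not be used, since identifiers are not paired with symbols.

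Reads per library were recovered with Python 3.11.15, NumPy 2.4.6, SciPy 1.17.1 and Numba 0.67.0. The 825 genes with a single read give the size factor and side of 14 libraries. Sets of whole reads were searched whose sum gives the deposited mean, and the negative binomial fit with Normal as baseline was repeated on each set, with the dispersion set so that the deposited standard error was met. For IL6, sets were left out beforehand if the ratio of group means was more than 2-fold off the deposited one. Sets with Normal reads above a cap were left out too. There remained 13 sets, and 1 gave the deposited log2 fold change, within 2.2e-15. For TNF 2 sets, and for IL10 8535, met the mean and nearly met the fold change, and 1 of each met it within 1e-12. The same fit met the deposited fold change within 1e-06 for 1977 of 1977 genes with a mean under 0.7 and at least 2 reads, some of them in compared libraries. On simulated data, 4 of 4 genes like IL6 and 4 of 4 like TNF were recovered; genes like IL10 were not simulated. The 3 genes with recovered reads were compared by exact permutation tests, with no adjustment; the plan had foreseen a description of these reads without a test. Intervals and floors cover counting error only.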

Additional observations from a re-analysis of the deposited data

Results flagged for a closer look

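In IL6, Short library E, at 14.8 normalised reads, stood apart from the other 4 Short libraries, which lay between 1.80 and 3.87; the gap to the nearest was 0.841 of the range. Normal library B stood apart from the other 3 at 0.972 normalised reads, which is a single read against none. This gap rule marks about 1 group in 20 by chance if values follow a normal distribution. Whether that rate holds for so few reads was not tested. A group with reads in 1 library alone is always marked, so the mark on Normal library B carries no information. In all, 6 groups were examined.

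The 5 libraries outside the comparison are part of the deposited means. Their highest values, 37.5 normalised reads for IL6, 45.0 for TNF and 64.4 for IL10, were above the highest Normal library of each gene, at 0.972, 3.62 and 26.9. The IL6 value is in outside library C and the other two are in outside library E. What these libraries are is not known here.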

How the results depend on the processing

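In each setting below, 0 of the 8 genes were called, but only the last tests IL1A, IL1B and CXCL8. P-values were adjusted over all genes with one, scores re-centred and rescaled on an empirical null, or the threshold set to 0.1. Genes were limited to a minimum mean of 10, or fold changes centred on the median of tested genes or on a running median. Last, missing p-values were taken from the deposited score. The last of these and every test of recovered reads were added once the data had been seen. Over all genes the empirical null, which also divides scores by its spread of 1.19, left 194 calls, against 521 as deposited. Centring fold changes on the median of tested genes, without rescaling, left 543. IL6, the nearest to a call, had adjusted p-values from 0.156 to 0.537 where tested. The minimum mean of 10 leaves out IL6 and TNF. Re-centring on the empirical null subtracts its centre, 0.109, times the gene's standard error, which was 1.78 for IL1B. By that calculation alone the log2 fold change of IL1B went from 0.18 to -0.015. No other gene changed direction under the centrings, which gave no value on the running median for the 3 genes without a p-value. As each of the 9 compared libraries was left out, the log2 ratio of recovered reads went from 2.27 (a lower bound) to 4.52 for IL6, from 1.11 to 2.02 for TNF and from -1.94 to -1.29 for IL10. The exact permutation p-values were at most 0.0357 for IL6, from 0.0571 to 0.214 for TNF and from 0.0286 to 0.0714 for IL10. That of IL10 was under 0.05 only without Short library E or Normal library B. On the scale log2(normalised reads + 1) the difference of the means was 1.90 for IL6, 1.19 for TNF and -1.48 for IL10, against log2 ratios of 4.31, 1.52 and -1.50 for the reads, and the p-values were those of the reads; adding 1 shrinks the changes of low values. With 100 or 1000 neighbours, or with neighbours that have a p-value, the percent with a smaller standard error stayed between 87.0 and 100 for IL1A, IL1B, CXCL8 and IL6, and between 21.0 and 25.8 for TLR2. No paired analysis was possible because replicate numbers pair no samples and recovered libraries carry none. Count tests with other normalisations were not run, as they need counts of all genes per sample. The 5 genes with higher means have no reads per library here.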
